A study of Mus musculus with 6 samples.

Results

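Neurons pass signals at chemical synapses by fusing transmitter-filled vesicles with the presynaptic membrane. Vesicle proteins include synaptophysin, synapsins, which tether vesicles, and synaptotagmins, among them calcium sensors. Vesicular transporters fill vesicles with transmitter, and SNARE proteins and complexins drive and clamp fusion. The active zone scaffold of Rims, Munc13s, liprins and ELKS proteins docks and primes vesicles beside calcium channels. In the mouse cortex most of this machinery is still being assembled during the first postnatal weeks. The transcript levels of 50 genes of this machinery were taken from a table of 24972 genes in dissected cortices at postnatal day 7. The genes were picked by symbol, as 25 vesicle proteins with their calcium sensors and Rab GTPases, 9 SNARE and complexin genes with their recycling factors, 14 active zone genes, and 2 vesicular glutamate transporters.

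There were 3 libraries from wildtype mice, which carried the floxed Zmiz1 gene without Cre (Zmiz1f/f), and 3 labelled Zmiz1-KO, which carried the floxed gene and Emx1Cre (Zmiz1f/f;Emx1Cre). Emx1 is active in dorsal telencephalic progenitors, so Cre acts in excitatory neurons and glia descended from them, while cortical interneurons, microglia and vessels come from other lineages and keep the gene. Whether each library came from a single mouse is not given in the sources used here, so the p-values measure the spread between these libraries. Each value is a read count normalized between libraries by the authors with DESeq2, called a normalized count here. Zmiz1, the targeted gene, was higher rather than lower in the libraries labelled Zmiz1-KO (9660 to 9944 normalized counts, against 7461 to 8119 for wildtype; limma adjusted p = 0.00125), so the groups are named by their labels. A gene total does not show whether its reads fall inside or outside the floxed exons.

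All 50 genes passed the filter (a normalized count of 10 or more in 3 or more libraries), and none was listed at 0 in any library. Together they held 1.32 to 1.34% of the normalized counts of a wildtype library and 1.34 to 1.35% of a library labelled Zmiz1-KO. Wildtype replicate 1 stood apart from the other libraries. It was the highest or the lowest of the 6 libraries in 27 of the 50 genes, against 12 to 18 genes for each of the others. Over all tested genes it was at such an extreme in 41.5%, against 28 to 34.8% for each of the others. In the same library the summed markers of striatal projection neurons and of interneurons were at their lowest (12032 and 19156 normalized counts, against at least 16448 and 21329 elsewhere), and 5 choroid plexus genes summed to 262. That sum was also low, at 299, for Zmiz1-KO replicate 2, and ranged from 3148 to 8313 elsewhere. The markers of cortical projection neurons were present in all libraries (22221 to 27348 normalized counts summed over 7 genes). Estimated counted reads were between 15494888 and 17858395 per library. Each estimate is the summed normalized counts of a library divided by the spacing of its low values, so it is approximate.

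The comparison asks whether the genes of the release machinery differ between the genotypes. At an adjusted p of 0.05 (limma, Benjamini-Hochberg over 15800 tested genes) none of the 50 was called, beside 0.411% of all tested genes. The lowest adjusted p among them was 0.168, none passed at an adjusted p of 0.1, and none passed with limma-voom. At an unadjusted p of 0.05 there were 11 of 50 (22%), of which 6 were higher with the Zmiz1-KO label and 5 lower, beside 11.0% of all tested genes. The genes are abundant and were measured more tightly than most, with a median standard error of 0.044 on the log2 fold change against 0.079 over all tested genes, and their median absolute log2 fold change was 0.049 against 0.075. Of the 50, 26 had a positive log2 fold change and 24 a negative one, with a median of 0.002, while 49.9% of all tested genes were positive.

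These data put narrow bounds on most of the genes. For 47 of the 50 the 95% interval of the change from limma, unadjusted for the number of genes, lay within a 1.3-fold change in either direction, for 45 within 1.2-fold, and for 22 within 1.1-fold. The exceptions at 1.3-fold were Sv2c, Syt2 and Syt10, the 3 genes with the lowest levels per kilobase of exon. Of the core fusion genes, Snap25 and Vamp2 had small standard errors on the log2 fold change (0.0347 and 0.0354). That of Stx1a was 0.0453, beside a median of 0.044 for the 50 genes. Snap25, the plasma membrane SNARE that forms the fusion complex with syntaxin and synaptobrevin, was nearly level. Its values, here and below in the order of replicates 1, 2 and 3, were 15860, 16461 and 15855 normalized counts for wildtype and 15873, 16236 and 16077 under the Zmiz1-KO label. Its difference was 0.0335% with a 95% interval of -4.93 to 5.25%.

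**Figure D1:**
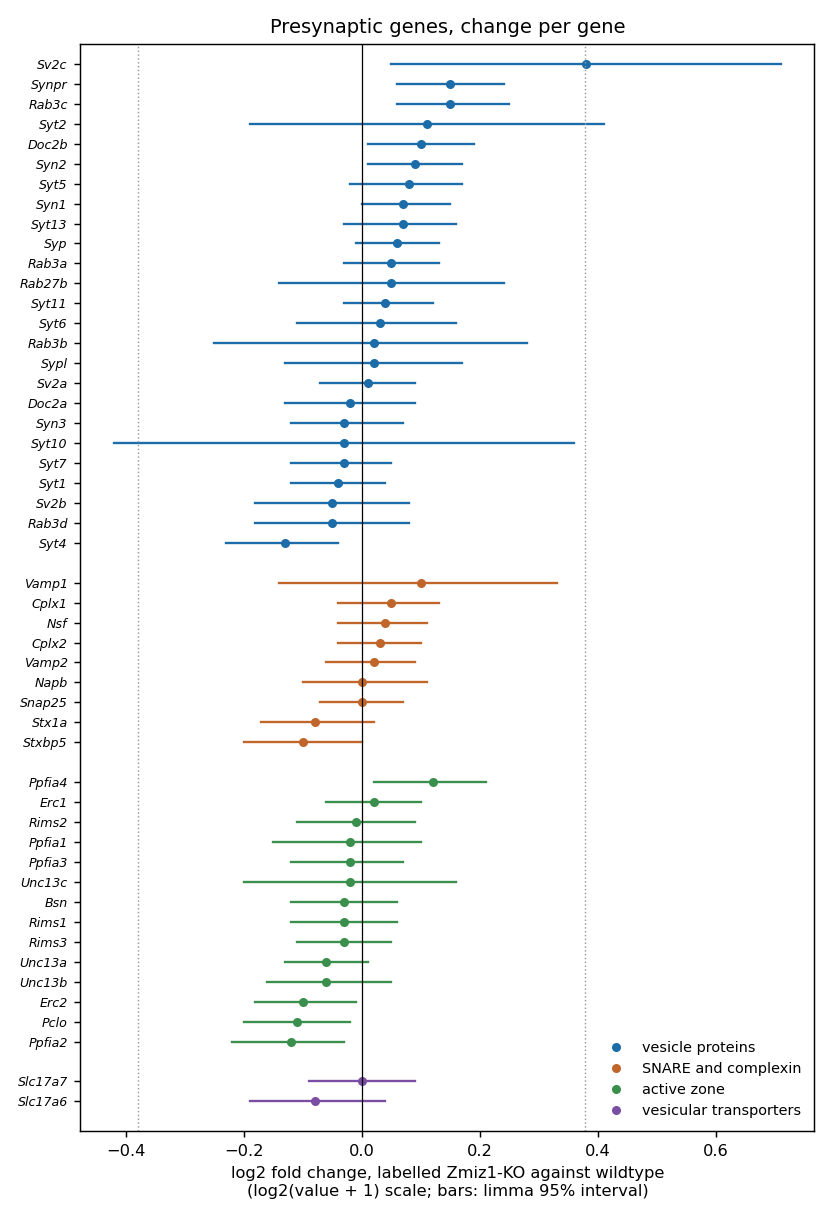
Log2 fold change of each of the 50 genes (horizontal axis, log2(value + 1) scale) between the libraries labelled Zmiz1-KO and wildtype, 3 libraries each, ordered within the 4 groups, with bars for the limma 95% interval and dotted lines at a 1.3-fold change. Sv2c lies farthest from 0 at 0.38 and has one of the widest intervals, and most active zone genes lie slightly left of 0.

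The levels themselves spanned a wide range. Per kilobase of exon, Syp (11830 ± 76.2 normalized counts per kb, SD, n = 3 wildtype libraries) and Vamp2 (11783 ± 386) stood highest and could not be ordered against each other, since their libraries overlapped. They encode synaptophysin and synaptobrevin 2, the main vesicle membrane protein and the vesicle SNARE. Snap25 (7188 ± 156), Rab3a (6608 ± 100), Slc17a7 (6569 ± 377), Syt1 (6285 ± 299) and Cplx2 (6165 ± 169 normalized counts per kb) came next, and the libraries of neighbors from Rab3a to Cplx2 overlapped. At the other end were Syt2 (55.8 ± 11.4), Syt10 (56.1 ± 11.1) and Sv2c (66.5 ± 9.25 normalized counts per kb). Some families held members of very different levels. Syt1, the fast calcium sensor of forebrain synapses, far exceeded Syt2, its counterpart in hindbrain and parvalbumin neurons, and Vamp2 far exceeded Vamp1 (156 ± 26.7 normalized counts per kb). Among the Munc13 priming factors the order was Unc13a (1630 ± 26.7), Unc13c (160 ± 10.9) and Unc13b (148 ± 6.88), and the latter 2 overlapped. In 31 of the 49 steps down the whole order, the 6 libraries of one gene overlapped those of the next. The order was nearly the same in the libraries labelled Zmiz1-KO, with the same 5 genes at the top.

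**Figure D2:**
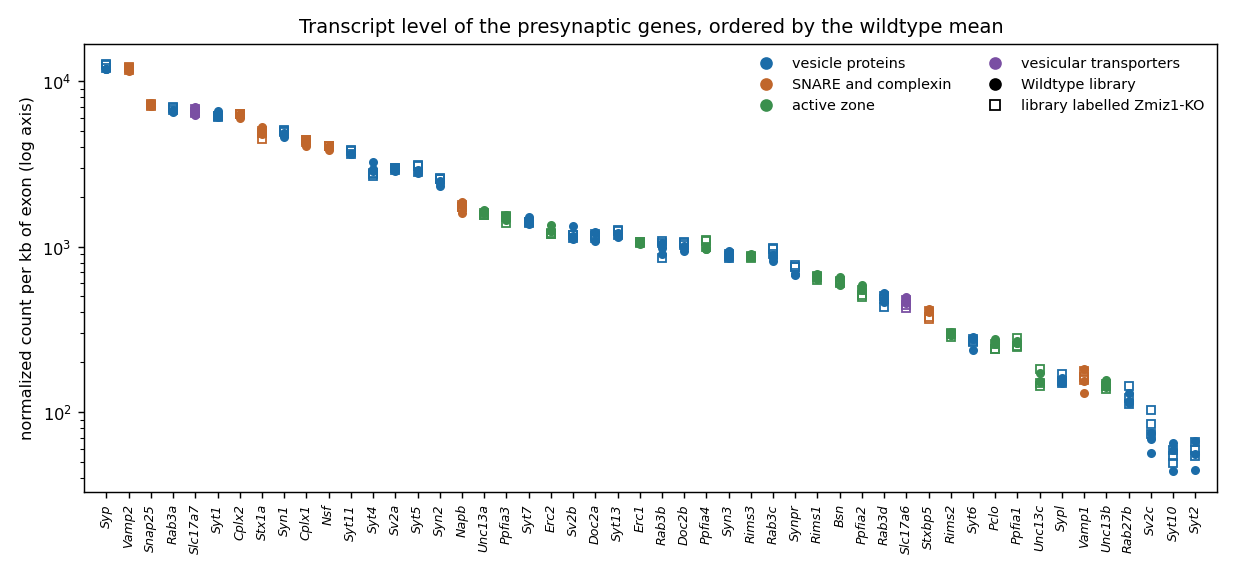
Normalized counts per kb of exon (vertical log axis) for the 50 genes in order of their wildtype mean, with filled circles for the 3 wildtype libraries, open squares for the 3 labelled Zmiz1-KO, and a color for each group of genes. Levels run from about 11830 for Syp to 55.8 for Syt2, and the spread among genes is far larger than that between libraries of a gene.

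Among the 25 vesicle proteins 17 were above 0 by log2 fold change and 8 below, with a median of 0.042. In 7 of them no value of one group fell within the range of the other, with Synpr, Rab3c, Syn1, Syn2, Syp and Doc2b higher under the Zmiz1-KO label and Syt4 lower. Over all 50 genes this held for 8 higher (16%) and 4 lower (8%), while 8.10% of all tested genes were higher without overlap and 8.16% lower. The smallest p that an exact permutation test allows here is 0.1, which each of these genes had.

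Synpr encodes synaptoporin, a relative of synaptophysin that is abundant at hippocampal mossy fibers and in interneurons. Its normalized counts were 2717, 2719 and 2691 for wildtype against 2988, 3056 and 2999 with the Zmiz1-KO label. The groups were well apart and each was tight. The difference was 11.3% (95% interval 4.53 to 18.5%; log2 fold change 0.15, standard error 0.0427), the lowest p of the 50 genes, at an adjusted p of 0.168. Leaving out any one library kept the log2 fold change between 0.14 and 0.16. After a correction for GC content and exon length, added after seeing the data, it was 0.19 (limma adjusted p = 0.1).

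Rab3c, a vesicle GTPase of the Rab3 family that takes part in docking, had 7232, 7589 and 7962 normalized counts in wildtype and 7990, 8656 and 8671 under the Zmiz1-KO label. The lowest of the latter lay just above the highest wildtype library. The difference was 11.1% (95% interval 4.02 to 18.7%; log2 fold change 0.15, standard error 0.0451, limma adjusted p = 0.204). After the correction for GC content and length the log2 fold change of Rab3c was 0.22 (limma adjusted p = 0.0825). Its relatives had smaller values. The difference was 3.55% for Rab3a, 1.29% for Rab3b and -3.36% for Rab3d, with overlapping groups in all 3, and the log2 ratio of Rab3c to Rab3a within a library overlapped between the groups as well (difference 0.10, exact permutation p = 0.3).

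Sv2c, a vesicle glycoprotein best known from the basal ganglia, had the largest difference of the 50 genes and one of the largest spreads. Its normalized counts were 521, 631 and 690 in wildtype and 677, 950 and 777 with the Zmiz1-KO label, so the lowest of the latter lay below the highest wildtype library. The difference was 30.1% with a 95% interval of 3.55 to 63.4% (log2 fold change 0.38, standard error 0.142, limma adjusted p = 0.379). With sex as a covariate the log2 fold change was again 0.38, with a standard error of 0.088 (limma adjusted p = 0.0845). The log2 fold change depended on single libraries and ran from 0.25 to 0.49 with a library left out. It was 0.27 without wildtype replicate 1 and 0.25 without replicate 2 labelled Zmiz1-KO. It was 0.47 without wildtype replicate 3 and 0.49 without replicate 1 labelled Zmiz1-KO. Sv2a and Sv2b, the forms that predominate in cortex, differed by 0.794% and -3.51%.

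For striatal projection neurons and interneurons, the markers had values in the same direction as these genes. All 10 markers of striatal projection neurons and all 11 of interneurons had a positive log2 fold change (medians 0.36 and 0.20). None passed an adjusted p of 0.05, and none was at 0 in any library. The striatal markers summed to 12032 to 16868 normalized counts in wildtype and 17873 to 19792 under the Zmiz1-KO label, and the interneuron markers to 19156 to 23606 and 24645 to 26659. Sv2c was lowest where the striatal sum was lowest (wildtype replicate 1) and highest where both sums were highest (replicate 2 labelled Zmiz1-KO). Between these the orders differed, with Sv2c at 690 in wildtype replicate 3 and 677 in Zmiz1-KO replicate 1, and striatal sums of 16868 and 18625. Rab3c was also lowest in wildtype replicate 1 (7232), but Synpr was lowest in wildtype replicate 3 (2691). Of the 7 cortical projection neuron markers 6 were negative by log2 fold change. Of 7 general neuron markers 5 were negative and 2 positive (median -0.039). Of 5 thalamic neuron markers 4 were positive and 1 negative (median 0.088). Meningeal markers were also higher (5 of 5, of which Col1a2 passed at a limma adjusted p of 0.00464), and astrocyte markers mostly lower (6 of 7, of which Aqp4 passed at 0.00499). Whether the amount of tissue or cells of these kinds had a part in the values of Sv2c, Synpr or Rab3c was not tested. In bulk tissue, fewer cells of a type and less RNA per cell cannot be told apart.

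**Figure D3:**
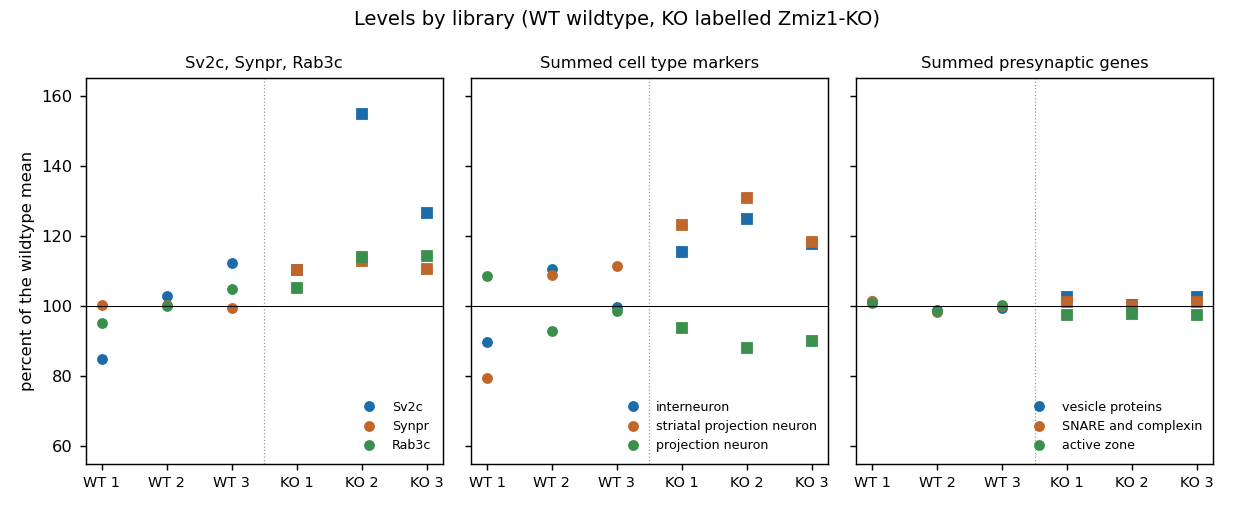
Percent of the wildtype mean (vertical axis) in each of the 6 libraries for Sv2c, Synpr and Rab3c (left), for summed markers of interneurons, striatal projection neurons and cortical projection neurons (middle), and for the summed vesicle, SNARE and complexin, and active zone genes (right). The marker sums and Sv2c vary far more between libraries than the summed presynaptic genes, which stay close to 100%.

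The synapsins, which tether vesicles to actin, showed small positive values for the 2 abundant forms. Syn2 had 12223, 12439 and 11641 normalized counts in wildtype and 12991, 12833 and 12856 with the Zmiz1-KO label, a difference of 6.59% (95% interval 0.969 to 12.5%, limma adjusted p = 0.357). Syn1, on the X chromosome, differed by 5.15% (-0.244 to 10.8%) and Syn3 by -1.85% (-8.14 to 4.87%). Syp, also X-linked, had 30423, 30777 and 30751 normalized counts in wildtype and 32444, 31031 and 32683 in the other group. Its groups were apart, but the difference of 4.55% had a 95% interval of -0.449 to 9.8%, and 15.7% of the 75-base stretches of its transcripts occur in other genes as well (13.7% for Syn3).

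The synaptotagmins differed among themselves in sign. Syt4, a calcium-independent isoform found on dense-core and postsynaptic vesicles, had the most negative value of the 50 genes. It had 12656, 11099 and 11414 normalized counts in wildtype and 10716, 10441 and 10882 under the Zmiz1-KO label, with no overlap. The difference was -8.77% (95% interval -14.7 to -2.46%; log2 fold change -0.13, standard error 0.0456, limma adjusted p = 0.272), and the log2 fold change was -0.08 without wildtype replicate 1, the highest library. Syt1 had 31999, 29385 and 29632 normalized counts in wildtype and 29638, 29491 and 29189 in the other group. All but wildtype replicate 1 lay within a narrow band, and the difference was -2.89% (-8.01 to 2.51%). Syt5, Syt11 and Syt13 had differences of 5.53%, 2.98% and 4.7% and Syt7, the slow sensor of asynchronous release, -2.28%, all with overlapping groups. The sparse Syt2 (322 to 487 normalized counts in wildtype, 391 to 480 in the other group) and Syt10 (80.9 to 121 and 91.3 to 109) had wide 95% intervals, from -12.3 to 32.9% and from -25.5 to 28.7%. Syt6 differed by 1.86%, with overlap.

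Doc2b, a high-affinity calcium sensor of spontaneous release, had 4108, 4264 and 4391 normalized counts in wildtype and 4622, 4459 and 4597 with the Zmiz1-KO label. These groups did not overlap, and the difference was 7.19% (95% interval 0.786 to 14%, limma adjusted p = 0.381). Doc2a differed by -1.34% (-8.68 to 6.59%), and 25.1% of its 75-base stretches occur in other genes, mostly in its neighbor Ino80e. Rab27b and Sypl, which act in vesicle traffic more widely, differed by 3.49% and 1.11% with overlapping groups.

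**Figure D4:**
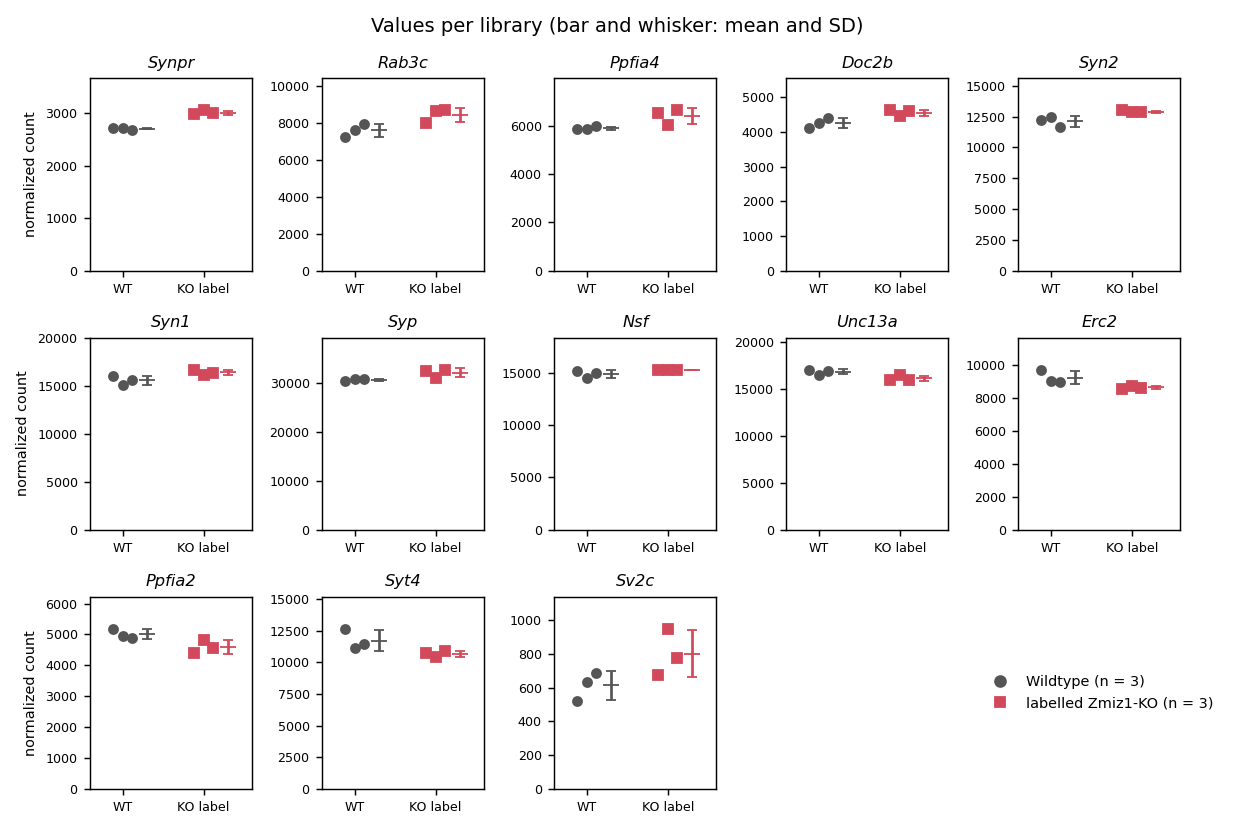
Normalized counts (vertical axes from 0) in each of the 3 wildtype libraries (circles) and the 3 labelled Zmiz1-KO (squares), with mean and SD, for the 12 genes whose groups did not overlap and for Sv2c. On axes that start at 0 the differences are small for every gene but Sv2c, whose groups overlap.

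The 9 SNARE and complexin genes differed little. Their log2 fold changes ran from -0.10 to 0.10 with a median of 0.018, 7 above 0 and 2 below (4 and 5 without wildtype replicate 1). Nsf was the only one whose groups did not overlap (higher, 11.1% of the group beside 8.10% of all tested genes). Nsf, the ATPase that takes SNARE complexes apart after fusion, had 15234, 14525 and 15029 normalized counts in wildtype and 15309, 15325 and 15263 under the Zmiz1-KO label, a difference of 2.5% (95% interval -2.62 to 7.88%, limma adjusted p = 0.78). Vamp2 differed by 1.26% (-3.85 to 6.64%) with 34503, 32362 and 33070 normalized counts for wildtype against 34504, 32834 and 33838. The complexins, which clamp and then promote fusion, differed by 3.41% (Cplx1, -2.44 to 9.61%) and 2.33% (Cplx2, -2.56 to 7.47%). Cplx1 had 9641, 8907 and 9141 normalized counts for wildtype against 9628, 9318 and 9675, which overlap. Cplx2 had 30962, 29425 and 30749 normalized counts in wildtype and 30983, 31313 and 30941 in the other group, which overlap.

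Stx1a and Stxbp5 were on the negative side. Stxbp5 encodes tomosyn, an inhibitor that competes with synaptobrevin for the syntaxin complex. It had 3804, 3686 and 3846 normalized counts in wildtype and 3445, 3756 and 3385 with the Zmiz1-KO label, of which replicate 2 lay within the wildtype range. Its difference was -6.7% (95% interval -12.9 to -0.0323%, limma adjusted p = 0.453), and its log2 fold change of -0.10 was -0.04 after a correction for GC content and exon length. Stx1a, the syntaxin of the plasma membrane, had 11329, 10365 and 10923 normalized counts against 10475, 9678 and 10760, a difference of -5.26% (-11.4 to 1.26%). The log2 fold change of Stx1a, -0.08, was -0.05 without wildtype replicate 1, -0.03 without Zmiz1-KO replicate 2 and -0.13 after the correction for GC content and length. Napb differed by 0.222% and Vamp1, the sparse vesicle SNARE, by 6.83% with a 95% interval of -9.37 to 25.9%.

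Of the 14 active zone genes 12 were below 0 by log2 fold change and 2, Ppfia4 and Erc1, above, with a median of -0.031. No gene of this group passed an adjusted p of 0.05 in either direction, and the groups did not overlap in 4, namely Ppfia4 (higher, 7.14% of the group beside 8.10% of all tested genes) and Ppfia2, Erc2 and Unc13a (lower, 21.4% beside 8.16%). The direction of some of the small values depended on the processing. After the correction for GC content and exon length 5 were above 0 and 9 below, where 46.8% of all corrected genes were above 0. With each library left out in turn, 3 or 4 were above 0. The counts stayed at 2 and 12 with upper-quartile scaling and limma-voom, and the median of the 14 genes was negative in each of these settings. These genes have long transcripts, with a median exon length of 8.32 kb against 4.36 kb for the vesicle proteins. Across the 50 genes, the log2 fold change had a Pearson's r of -0.13 and a Spearman's rho of -0.24 with log2 exon length, beside -0.10 and -0.19 across all 15620 tested genes with a gene model. These are descriptions, since the genes share the same 6 libraries. Summed, the 14 genes had 87101 to 89128 normalized counts in wildtype and 86003 to 86250 under the Zmiz1-KO label. General neuron markers summed to 155601 to 167364 and 155884 to 158725, and cortical projection neuron markers to 23394 to 27348 and 22221 to 23661, and their part in the active zone values was not tested.

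Liprins, the scaffold proteins that recruit other active zone components, gave the clearest contrast within a family. Ppfia2 had 5185, 4943 and 4876 normalized counts in wildtype and 4400, 4830 and 4548 under the Zmiz1-KO label. Ppfia4 had 5868, 5843 and 5963 in wildtype and 6516, 6019 and 6626 in the other group. The genes thus differed in sign, and the groups of each were apart. The difference was -8.21% for Ppfia2 (95% interval -14.1 to -1.95%, limma adjusted p = 0.303) and 8.33% for Ppfia4 (1.74 to 15.3%, limma adjusted p = 0.311). Their log2 ratio within a library, which no scaling between libraries can alter, was 0.18, 0.24 and 0.29 in wildtype and 0.57, 0.32 and 0.54 in the other group, a difference of 0.24 (exact permutation p = 0.1, adjusted 0.48 over 12 ratios). With a library left out this difference was 0.19 to 0.32. For Ppfia2, 23% of the 75-base stretches also occur in other genes, mostly in Acss3, which had at most 27.8 normalized counts in any library. After the correction for GC content and length the log2 fold change was -0.05 for Ppfia2 and 0.11 for Ppfia4. Ppfia1 and Ppfia3 differed by -1.66% and -1.4%, with overlapping groups.

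The promoters of Synpr and Rab3c, the vesicle genes with the lowest p, and of the Ppfia2 and Ppfia4 pair are shown for reference. They are RefSeq sequences on GRCm38.p6, 250 bases before to 50 after a start site, 5′ to 3′ on the strand of the gene, at chr14:13284530-13284829 (plus strand), chr13:110280157-110280456 (minus), chr10:106470060-106470359 (plus) and chr1:134332879-134333178 (minus). For Synpr and Ppfia4, each with 2 promoters in the table, the one at the start of the principal GENCODE transcript is shown. Capitals mark the GC box, searched as GGGCGG on both strands.
Synpr: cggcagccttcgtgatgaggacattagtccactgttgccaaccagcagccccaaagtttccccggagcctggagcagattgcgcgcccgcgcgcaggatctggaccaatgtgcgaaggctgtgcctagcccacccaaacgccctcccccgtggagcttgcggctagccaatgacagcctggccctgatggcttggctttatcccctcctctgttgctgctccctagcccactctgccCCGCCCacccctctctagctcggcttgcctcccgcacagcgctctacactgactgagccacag
Rab3c: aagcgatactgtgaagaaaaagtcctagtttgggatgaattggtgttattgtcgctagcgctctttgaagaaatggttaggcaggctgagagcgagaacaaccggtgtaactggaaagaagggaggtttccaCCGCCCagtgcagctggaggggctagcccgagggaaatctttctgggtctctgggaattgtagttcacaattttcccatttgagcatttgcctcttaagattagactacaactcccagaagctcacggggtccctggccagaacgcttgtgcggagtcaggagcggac
Ppfia2: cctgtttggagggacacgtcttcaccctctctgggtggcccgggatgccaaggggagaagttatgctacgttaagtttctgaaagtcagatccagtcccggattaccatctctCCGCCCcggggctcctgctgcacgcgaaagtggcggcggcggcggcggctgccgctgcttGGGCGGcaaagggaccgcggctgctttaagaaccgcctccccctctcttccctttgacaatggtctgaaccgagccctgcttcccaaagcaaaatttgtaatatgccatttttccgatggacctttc
Ppfia4: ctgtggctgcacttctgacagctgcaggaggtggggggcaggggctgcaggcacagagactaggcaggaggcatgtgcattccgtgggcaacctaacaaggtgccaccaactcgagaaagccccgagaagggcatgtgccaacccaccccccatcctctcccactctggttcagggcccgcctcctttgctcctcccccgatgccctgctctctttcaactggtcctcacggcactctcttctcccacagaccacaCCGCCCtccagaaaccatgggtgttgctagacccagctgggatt
Each of the 4 holds at least 1 GC box, the motif of Sp family factors, and Ppfia2 holds 2. The RefSeq table matched 39 of the 50 genes with 52 promoters, of which 39 promoters (75%) held a GC box, beside 35.7% of all 32851 promoters. The full set was not matched to these genes for GC content or for expression in cortex, so the shares are descriptions only. The cyclic AMP response element, searched as TGACGTCA, was in 1 of the 52, that of Syn1, and the EGR motif GCGTGGGCG in 1, that of Unc13a, beside 1.79% and 0.612% of all promoters. The E-box CACGTG was in 6 of the 52 promoters (11.5%, against 7.15% of all) and the TATA box TATAAA in 3 (5.77%, against 13.6%). All motifs were searched on both strands, and none contains another. The 4 motifs other than the GC box were in none of the promoters shown.

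Erc1 and Erc2 encode ELKS proteins, which bind Rims and Bassoon. Erc2 had 9738, 9027 and 8995 normalized counts in wildtype and 8577, 8751 and 8627 with the Zmiz1-KO label, a difference of -6.44% (95% interval -11.8 to -0.783%, limma adjusted p = 0.379). Erc1 had 10484, 10151 and 10255 against 10288, 10498 and 10533, a difference of 1.39% (-3.79 to 6.86%). The log2 ratio of Erc2 to Erc1 was lower in each library labelled Zmiz1-KO (-0.26, -0.26 and -0.29) than in any wildtype library (-0.11, -0.17 and -0.19), with a difference of -0.12 (exact permutation p = 0.1, adjusted 0.48). This and the liprin ratio were the only 2 of the 12 ratios without overlap. Without wildtype replicate 1, the highest library, the log2 fold change of Erc2 was -0.06.

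**Figure D5:**
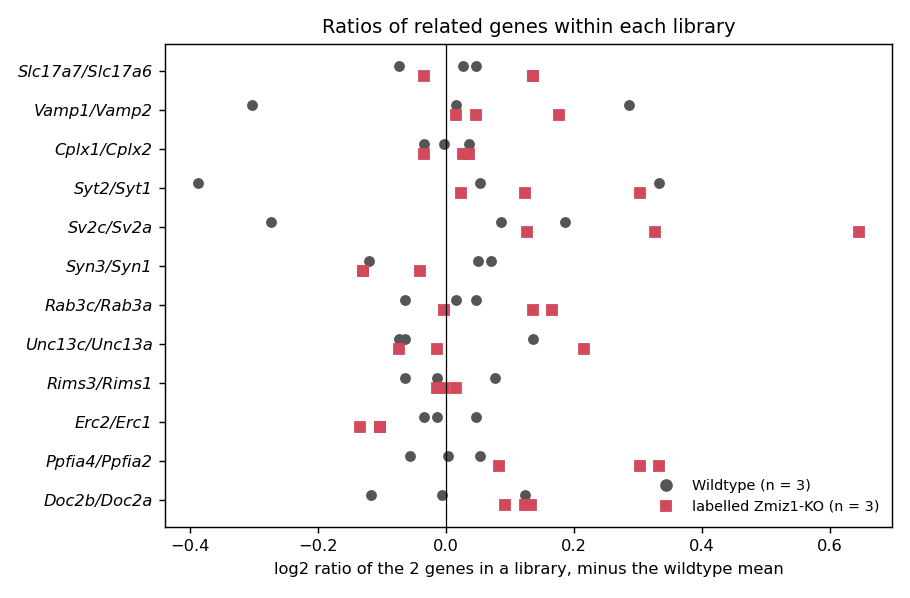
Log2 ratio of 2 related genes within each library, minus the wildtype mean of that ratio (horizontal axis), for 12 pairs, with circles for wildtype and squares for the libraries labelled Zmiz1-KO. The groups separate for Erc2/Erc1 and Ppfia4/Ppfia2, while wildtype replicate 1 lies far to the left for Vamp1/Vamp2, Syt2/Syt1 and Sv2c/Sv2a.

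Pclo and Bsn encode Piccolo and Bassoon, the giant scaffolds of the active zone. Pclo had 6103, 5645 and 5815 normalized counts in wildtype and 5311, 5646 and 5339 under the Zmiz1-KO label, where replicate 2 equalled the lowest wildtype library to within 1 count. Its difference was -7.2% (95% interval -12.9 to -1.14%, limma adjusted p = 0.355). It had the most exon sequence of the 50 genes, 22.1 kb, and its log2 fold change was -0.04 after the correction for GC content and length. Bsn differed by -2.14% (-8.01 to 4.11%).

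Unc13a, the main Munc13 priming factor of excitatory synapses, had 17035, 16499 and 16874 normalized counts in wildtype and 15956, 16443 and 15952 with the Zmiz1-KO label, a difference of -4.08% (95% interval -8.82 to 0.904%, limma adjusted p = 0.561). The groups were apart by less than the spread within either. Unc13b and Unc13c differed by -3.99% and -1.35%. Rims1, Rims2 and Rims3, which link Rab3 to calcium channels, differed by -2.18%, -0.705% and -2.14%, all with overlapping groups and with 95% intervals inside -8.03 to 6.47%.

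The 2 glutamate transporters fill vesicles with transmitter. Slc17a7, which marks most mature cortical excitatory synapses, had 20879, 18675 and 19366 normalized counts in wildtype and 20218, 19188 and 19464 under the Zmiz1-KO label, with a log2 fold change of -0.00 and a 95% interval of -5.91 to 6.28%. Slc17a6, the form of subcortical and early cortical neurons, had 2041, 1968 and 1877 against 1835, 1964 and 1772, a difference of -5.37% (-12.6 to 2.48%, limma adjusted p = 0.64). The log2 ratio of Slc17a7 to Slc17a6, which rises as cortical neurons mature, averaged 3.32 ± 0.07 for wildtype against 3.40 ± 0.10 for the other group (SD, n = 3 each), with overlap (exact permutation p = 0.3). The difference of 0.08 was 0.04 without wildtype replicate 2, 0.05 without Zmiz1-KO replicate 1 or 3, and 0.14 without Zmiz1-KO replicate 2.

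Of 72 further presynaptic genes, in lists for other release genes, endocytosis, the vesicle proton pump and presynaptic calcium channels, 42 were above 0 and 30 below with a median log2 fold change of 0.008, beside 49.9% of all tested genes above 0. Of the 72, 1 passed an adjusted p of 0.05, beside 0.411% of all tested genes. That gene was Cplx3, a complexin of ribbon synapses and of subplate and layer 6 neurons. It had 557, 440 and 510 normalized counts for wildtype and 375, 327 and 330 under the Zmiz1-KO label, with no overlap. The difference was -31.3% (95% interval -40.9 to -20.2%, limma adjusted p = 0.0269), but it did not pass when any of 4 of the 6 libraries was left out, wildtype replicates 1 and 3 and replicates 1 and 3 labelled Zmiz1-KO (limma adjusted p from 0.0511 to 0.178), nor without robust estimation (0.102). The log2 fold change was -0.54, and -0.46 to -0.61 in those settings. Its paralogs Cplx1 and Cplx2, above, had positive values with intervals that included 0. The next by p were Syt17 (965 to 1122 normalized counts in wildtype and 1199 to 1255 in the other group, limma adjusted p = 0.168), Rph3a (7977 to 8494 and 8920 to 9168, adjusted p = 0.178) and Rab27a (136 to 150 and 173 to 219, adjusted p = 0.28). Rph3a encodes rabphilin, an effector of Rab3 and Rab27, and all 3 were higher without overlap. Among the 25 endocytosis genes 11 were above 0, among the 14 proton pump genes 12, and among the 7 calcium channel genes 4. None of these passed an adjusted p of 0.05. Among the 26 other release genes 5 had an unadjusted p under 0.05 (19.2%), beside 11.0% of all tested genes. In each of the endocytosis, proton pump and calcium channel lists 1 had (4%, 7.14% and 14.3% of the lists). Named after their values were seen, these were Dnm1, the GTPase that pinches off vesicles (6.75%, limma adjusted p = 0.299), Atp6v0a1, a proton pump subunit (5.91%, adjusted p = 0.379), and Cacna1b, the N-type calcium channel (6.97%, adjusted p = 0.439).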

How the data were processed

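Total RNA of dissected P7 cortices was made into TruSeq v2 libraries, which do not mark strand. The authors aligned reads to mm10 with STAR in BaseSpace and normalized gene counts with DESeq2. The deposited values are these normalized signal values, 1 column per library. Versions, counter and annotation are not given in the sources used here. Low values lie near multiples of a step of 1.83 to 2.11. Of high values 19.7 to 20.8% do (within 0.1 of a step), about the share that evenly spread values would give. A small error in the step would have the same effect, so this cannot show whether high values are scaled whole counts. Whole reads were not recovered, and no count test was run. The 15800 genes that reached 10 in 3 or more libraries were compared as log2(value + 1) in R 4.3.3 by limma 3.58.1 with intensity trend and robust estimation, two-sided, no covariate, and Benjamini-Hochberg adjustment over all tested genes. Fold changes are on the log2(value + 1) scale. Exact permutation tests were two-sided.

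Exon lengths, GC content and 75-base stretches shared with other genes (both strands) came from GENCODE M21 on GRCm38, the build of mm10. By rule, values per library are given for 21 of the genes, namely any called, the 4 with the lowest p and the 2 with the highest mean in each group, the extremes of fold change, and both genes of a ratio without overlap. Snap25 and Doc2b were chosen later, with their values in view. The genes and lists were chosen with earlier results of these data known. The procedure was tested on simulated data. Alternatives were pseudocounts of 0.1 and 10, other filters, median-ratio and upper-quartile scaling, limma-voom, no robust estimation, an adjusted p of 0.1, the replicate number as a block, sex as a covariate (2 male and 1 female libraries per group, by Xist and Y-linked genes), and each library left out. The correction for GC content and length, possible for 98.9% of tested genes, was added after seeing the data. Figures used matplotlib (version 3.10.9).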

Additional observations from a re-analysis of the deposited data

How the results depend on the processing

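With 3 libraries per group, a gene that was not called may still differ by any amount within its interval. No presynaptic gene of the 50 was called under 17 of the 18 alternatives. With the replicate number as a block, 2 were called, Rab3c (log2 fold change 0.15, limma adjusted p = 0.0389) and Sv2c (0.38, adjusted p = 0.0378), and 168 genes in all. The labels do not say that equal numbers mark paired mice, and the deviations of libraries with equal numbers correlated at -0.01, -0.11 and -0.01 across genes, with no library closest to its own number, so the block was not taken as a pairing. Of the 72 further genes, 1 was called, and 0 without robust estimation or when single libraries were left out (range 0 to 1). Over all genes, 65 were called, 17 without robust estimation, 39 after correction for GC content and length, 106 at an adjusted p of 0.1, and 12 to 152 with a library left out. Of 357 values for the 21 named genes, 7 changed sign, all close to 0. They were Cplx1 at -0.00 and Vamp2 at -0.02 after the GC and length correction, Slc17a7 at 0.01 with upper-quartile scaling, and, with a library left out, Slc17a7 (-0.04 to 0.04) and Vamp2 (-0.00 to 0.04). Of 108 values of the 12 ratios, 7 changed sign, all with a library left out, when the differences were -0.07 to 0.22 for Vamp1/Vamp2, -0.04 to 0.32 for Syt2/Syt1, -0.05 to 0.11 for Unc13c/Unc13a, -0.03 to 0.04 for Rims3/Rims1 and -0.00 to 0.04 for Cplx1/Cplx2. The causes were not tested.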
